A study of Mus musculus with 36 samples.

Results

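The aminoacyl-tRNA synthetase genes of the mouse were followed in 36 RNA-seq libraries of C57BL/6 mice given roxadustat, DMOG or PBS. The members were the 36 rows with those gene names in both deposited tables, out of 22558 gene rows in each table, and all 36 passed the filter of a mean of 0.5 FPKM in both tables. Of the members, 18 encode cytosolic enzymes, 16 encode mitochondrial enzymes and 2, Gars and Kars, encode enzymes that serve both compartments. FPKM (fragments mapped to a gene, scaled by transcript length and by the number of fragments mapped in the library) allows for transcript length, so levels can be set side by side between genes.

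Roxadustat and DMOG (dimethyloxalylglycine) both inhibit the prolyl hydroxylases that mark HIF, the hypoxia-inducible transcription factor, for destruction; PBS is the saline control. DMOG is an ester of oxalylglycine, a mimic of the hydroxylases' co-substrate, while roxadustat is an isoquinoline carbonyl-glycine. Each treatment had 6 libraries labelled retina and 6 labelled liver, made from total RNA after removal of ribosomal RNA; the labels give strain, tissue and treatment but no age, dose, route or time, and do not say whether libraries came from separate animals, so p-values measure the spread between libraries. Because no doses are given, values of the drugs are set side by side without being matched.

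The tissue labels did not match the transcriptomes. In the 18 libraries labelled retina, 8 hepatocyte markers summed to 17456 to 28948 FPKM and 6 photoreceptor markers to 1.05 to 2.60 FPKM. In the 18 libraries labelled liver the sums were 14.6 to 60.1 FPKM for hepatocyte markers and 7270 to 13485 FPKM for photoreceptor markers. In each set, 2 of the 8 hepatocyte markers were at 0 in all 18 libraries, so the sums rest on the others. The first set is therefore called liver RNA (libraries labelled retina) and the second retina RNA (libraries labelled liver). In liver RNA, DMOG replicate 5 stood apart from its group: its mean over 12 HIF-responsive check genes was 3.13 on the log2(FPKM + 0.5) scale, against 4.95 to 5.45 in the other DMOG libraries and 2.98 to 3.21 in PBS libraries. The main counts for DMOG in liver RNA are also given without it.

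A synthetase joins an amino acid to its tRNA, which is the step at which the genetic code is read into protein. Cytosol and mitochondrion carry separate tRNAs, and most amino acids have one nuclear gene for each compartment, the mitochondrial one usually ending in 2 in its name. Several cytosolic enzymes, those encoded by Eprs, Iars, Lars, Qars, Mars, Kars, Rars and Dars, sit in the multisynthetase complex on the scaffold proteins encoded by Aimp1, Aimp2 and Eef1e1. Many cytosolic synthetase genes are known targets of Atf4, the transcription factor of the amino acid response, which binds an element containing TGATGNAA. HIF binds a short core, of which only the form ACGTG was searched here.

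RefSeq promoter windows of GRCm38.p6, from 250 bases before to 50 bases after each start, were at hand for 27 members. The windows of Tars, Aars, Dars and Lars2 are shown because these members are among those whose RNA level moved and because they differ in which motif they hold. Capitals mark TGATGNAA or ACGTG on either strand; where ACGTG is read on both strands the copies overlap as CACGTG.
Tars (chr15:11399609-11399908, minus strand): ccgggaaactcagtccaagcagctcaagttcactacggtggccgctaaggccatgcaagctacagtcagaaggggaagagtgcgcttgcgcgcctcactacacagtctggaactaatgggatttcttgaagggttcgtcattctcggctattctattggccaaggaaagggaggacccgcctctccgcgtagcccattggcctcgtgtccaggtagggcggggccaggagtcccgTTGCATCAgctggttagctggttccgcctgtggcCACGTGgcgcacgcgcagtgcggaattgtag
Aars (chr8:111033592-111033891, plus strand): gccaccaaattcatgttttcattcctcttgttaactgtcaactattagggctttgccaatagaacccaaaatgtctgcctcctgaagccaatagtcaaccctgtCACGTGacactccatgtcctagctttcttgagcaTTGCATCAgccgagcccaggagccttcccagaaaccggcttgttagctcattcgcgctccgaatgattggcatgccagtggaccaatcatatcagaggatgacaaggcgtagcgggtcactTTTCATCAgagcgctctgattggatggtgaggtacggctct
Dars (chr1:128417367-128417666, minus strand): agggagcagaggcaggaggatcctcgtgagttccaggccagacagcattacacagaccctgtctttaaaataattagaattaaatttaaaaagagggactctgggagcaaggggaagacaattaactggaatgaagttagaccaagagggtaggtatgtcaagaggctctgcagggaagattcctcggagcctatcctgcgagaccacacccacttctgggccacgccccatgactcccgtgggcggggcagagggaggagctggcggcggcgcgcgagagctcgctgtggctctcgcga
Lars2 (chr9:123366677-123366976, plus strand): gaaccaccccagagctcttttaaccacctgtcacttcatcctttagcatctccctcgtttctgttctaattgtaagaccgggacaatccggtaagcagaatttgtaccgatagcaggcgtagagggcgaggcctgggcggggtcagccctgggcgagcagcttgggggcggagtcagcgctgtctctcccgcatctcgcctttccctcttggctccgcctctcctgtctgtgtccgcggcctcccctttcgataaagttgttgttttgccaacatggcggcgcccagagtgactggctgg
TGATGNAA was present in 5 of the 27 windows (18.5%), against 3.97% of all 32851 RefSeq promoter windows. The 5 were Aars, Iars, Tars and Yars among 11 cytosolic genes and Gars among 2 shared ones; 0 of 14 mitochondrial windows held it. ACGTG was present in 10 of the 27 windows (37.0%), against 19.6% of all windows: Aars, Eprs, Farsb, Iars and Tars among the cytosolic genes, Kars, and the mitochondrial Ears2, Nars2, Rars2 and Wars2. A match of letters is a description and shows no binding.

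Cytosolic synthetase genes were more abundant than mitochondrial ones, with Lars2 far above both. In liver RNA (libraries labelled retina) the means over 18 libraries were 10.0004 FPKM (Iars, isoleucine) to 44.6 FPKM (Dars, aspartate) for the cytosolic genes, with a median of 18.3 FPKM. The 15 mitochondrial genes other than Lars2 had means of 2.01 FPKM (Wars2, tryptophan) to 25.3 FPKM (Iars2, isoleucine), with a median of 5.79 FPKM. Kars (lysine) and Gars (glycine), the shared genes, averaged 41.2 and 27.6 FPKM. In liver RNA the cytosolic and mitochondrial ranges overlapped, since Iars2, Fars2, Yars2 and Tars2 lay above Iars.

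In retina RNA (libraries labelled liver) the cytosolic means were 10.8 FPKM (Vars, valine) to 63.0 FPKM (Nars, asparagine), with a median of 34.7 FPKM. The mitochondrial genes other than Lars2 had means of 3.44 FPKM (Wars2) to 22.0 FPKM (Rars2, arginine), with a median of 9.13 FPKM. Gars averaged 63.3 FPKM and Kars 51.9 FPKM. Wars2 was thus the lowest member in both tables.

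**Figure D1:**
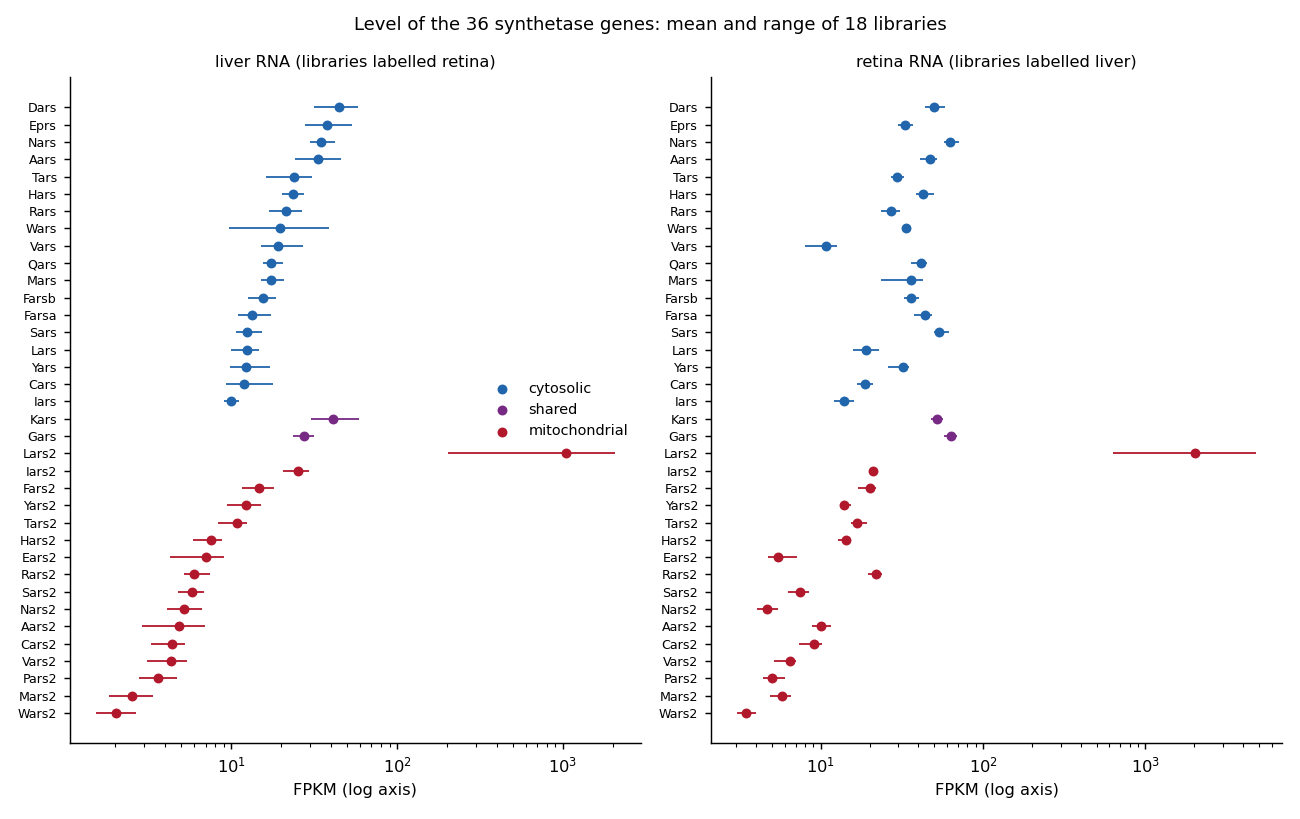
FPKM (log axis) of the 36 synthetase genes in liver RNA (libraries labelled retina, left) and retina RNA (libraries labelled liver, right); points are means and lines the range of 18 libraries, coloured by compartment. Lars2 averaged 1040 FPKM in liver RNA and 2030 FPKM in retina RNA, while the other mitochondrial members averaged at most 25.3 FPKM in liver RNA and 22.0 FPKM in retina RNA.

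Lars2 encodes the mitochondrial leucyl-tRNA synthetase. Its mean was 41.1-fold that of Iars2, the next mitochondrial member, in liver RNA (libraries labelled retina), and 92.1-fold that of Rars2, the next one, in retina RNA (libraries labelled liver). The gene lies on the plus strand of chromosome 9 at 123366927 to 123462675 in GRCm38.p6; the deposited values were made on mm9. The longest coding transcript in GENCODE, of 3894 bases, shares 72 bases at 98.6% identity (bases 3278 to 3349) with Gm15564, annotated as antisense, and 97 bases at 94.8% identity (bases 3233 to 3329) with AA474408. Neither gene is a row of the tables, and how reads in that stretch were counted is not given in the sources used here, so the part of the Lars2 value that comes from the rest of its transcript is uncertain.

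Lars2 was lower with both drugs in liver RNA (libraries labelled retina). It had 510, 586, 442, 430, 664 and 698 FPKM in roxadustat replicates 1 to 6. It had 1584, 1489, 203, 555, 281 and 350 FPKM in DMOG replicates 1 to 6, and 1931, 1714, 1903, 1963, 1347 and 2063 FPKM in PBS replicates 1 to 6. All roxadustat libraries lay below all PBS libraries, and so did 4 DMOG libraries, while DMOG replicates 1 and 2 lay within the PBS range. The log2 difference from PBS was -1.72 ± 0.40 (SE, n = 6 each) for roxadustat, with an adjusted p of 0.0173, and -1.73 ± 0.40 for DMOG, with an adjusted p of 0.00580 (limma, Benjamini-Hochberg over all 12657 genes tested).

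The exact two-sided permutation p of the Lars2 difference in liver RNA was 0.00216 for roxadustat and 0.00866 for DMOG. The first is the smallest that 6 against 6 libraries can give. Adjusted over the 6 Lars2 comparisons these were 0.00649 and 0.0173. Lars2 was chosen with earlier results of these data known, and no adjustment over all genes was made. The permutation p is therefore a description of the same libraries and no separate evidence. Roxadustat minus DMOG was 0.00, with a 95% interval of -0.83 to 0.83 on the log2 scale, so a difference between the drugs of up to about that size in either direction was not detectable. Without DMOG replicate 5 the DMOG difference was -1.54 ± 0.40 with an adjusted p of 0.00619. In the submitters' running numbers, which follow treatment order (PBS, DMOG, roxadustat), the libraries numbered 9 to 18 had 203 to 698 FPKM and those numbered 1 to 8 had 1347 to 2063 FPKM. The step falls inside the DMOG group, and its part in the result was not tested.

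In retina RNA (libraries labelled liver), Lars2 had 743, 628, 754, 1053, 1266 and 4032 FPKM in roxadustat replicates 1 to 6. It had 2090, 1038, 2395, 645, 1042 and 831 FPKM in DMOG replicates 1 to 6, and 3081, 4836, 2592, 3076, 3588 and 2843 FPKM in PBS replicates 1 to 6. All DMOG libraries lay below all PBS libraries, and 5 roxadustat libraries did; roxadustat replicate 6 lay inside the PBS range. The log2 difference from PBS was -1.55 ± 0.38 (SE, n = 6 each) for roxadustat, with an adjusted p of 0.0342, and -1.45 ± 0.38 for DMOG, with an adjusted p of 0.0793 that missed the threshold of 0.05 (limma, over 13779 genes). The exact two-sided permutation p was 0.0130 for roxadustat and 0.00216 for DMOG, or 0.0195 and 0.00649 after adjustment over the 6 comparisons. As in liver RNA, it was not adjusted over all genes and is a description.

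The retina RNA calls for Lars2 lay close to the threshold. Without roxadustat replicate 6, the roxadustat difference was -1.92 with an adjusted p of 0.000666 and the DMOG difference was called with an adjusted p of 0.0164 (limma). The roxadustat call was lost, with an adjusted p of at most 0.0993, when any of roxadustat replicates 1 to 5 or PBS replicates 1, 2 or 5 was left out. The DMOG difference was also called without DMOG replicate 1 (0.0484) or DMOG replicate 3 (0.0278). The response of Lars2 in liver RNA minus that in retina RNA was -0.17 for roxadustat (95% interval -1.33 to 0.99) and -0.28 for DMOG (95% interval -1.43 to 0.88), so no difference between the tissues was shown.

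**Figure D2:**
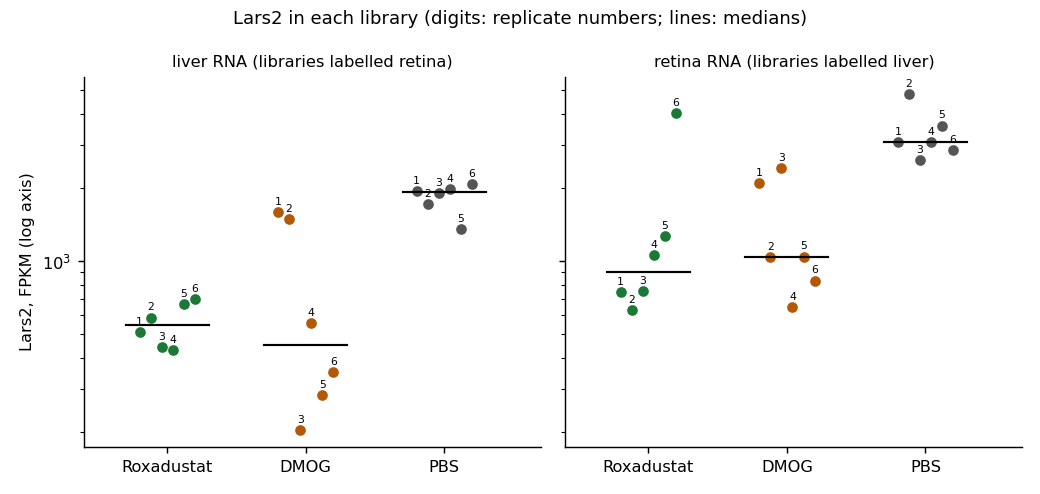
Lars2 in FPKM (log axis) in each library of the roxadustat, DMOG and PBS groups, for liver RNA (libraries labelled retina, left) and retina RNA (libraries labelled liver, right); digits are replicate numbers and lines are medians of 6 libraries. The medians were 548, 452 and 1917 FPKM in liver RNA and 903, 1040 and 3078 FPKM in retina RNA for roxadustat, DMOG and PBS.

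Lars2 and the HIF-responsive genes did not go together in every library. In liver RNA (libraries labelled retina), DMOG replicate 5, in which those genes were at PBS level, had 281 FPKM of Lars2, and DMOG replicates 1 and 2, in which their mean was highest, had 1584 and 1489 FPKM. Egln3, a HIF target that encodes one of the prolyl hydroxylases, had up to 20.4 FPKM in roxadustat libraries, 71.5, 46.4, 48.8, 72.5, 8.23 and 50.6 FPKM in DMOG replicates 1 to 6, and 5.19 to 8.29 FPKM in PBS libraries. All roxadustat libraries combined Egln3 above the PBS range with Lars2 below it, as did DMOG replicates 3, 4 and 6. Of the 12 check genes, 11 were called higher with roxadustat and 12 with DMOG in liver RNA. Over all genes there, 2.16% and 8.26% were called higher. In retina RNA (libraries labelled liver), 9 of the 12 check genes were called higher with roxadustat and 1 with DMOG. Over all genes of retina RNA, 1.69% and 0.370% were, while the Lars2 differences of the drugs were those given above. The check genes were chosen with earlier results of these data known.

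**Figure D3:**
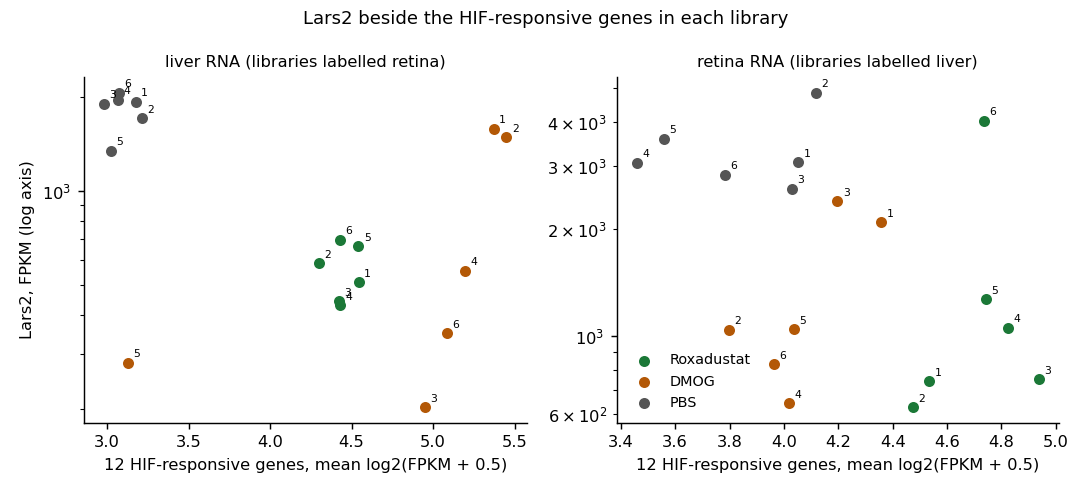
Lars2 in FPKM (log axis) against the mean log2(FPKM + 0.5) of 12 HIF-responsive check genes in each library, for liver RNA (libraries labelled retina, left) and retina RNA (libraries labelled liver, right); digits are replicate numbers. In liver RNA, DMOG replicate 5 is at 3.13 on the horizontal axis with 281 FPKM of Lars2, and DMOG replicates 1 and 2 combine the highest check-gene values with 1584 and 1489 FPKM.

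Abundant non-coding RNAs and tissue markers were set beside Lars2, since total RNA libraries carry both. Of 20 non-coding RNAs listed, 7 were rows of each table and 5 were tested. The values given here include no ribosomal RNA, so its share of the libraries is not shown. In liver RNA (libraries labelled retina) Rmrp, the RNA of the ribonuclease that processes mitochondrial and ribosomal RNA, had medians of 10554, 10097 and 8812 FPKM in roxadustat, DMOG and PBS libraries. Its medians in retina RNA (libraries labelled liver) were 28692, 29864 and 24750 FPKM, and Rpph1, the RNA of the ribonuclease that trims tRNA, had 78480, 78326 and 50641 FPKM. Rmrp and Rpph1 were not called in either table with all libraries, the smallest adjusted p being 0.157 (limma). Their r with Lars2 over 18 libraries was 0.226 and -0.123 in liver RNA and -0.581 and -0.775 in retina RNA. Malat1, a nuclear non-coding RNA, fell with DMOG in retina RNA by 0.46 on the log2 scale (limma adjusted p = 0.0429). Its r with Lars2 was 0.541 in retina RNA and -0.24 in liver RNA.

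Lens RNA was lower with DMOG than with PBS in retina RNA (libraries labelled liver). The sum of 4 lens markers was 145 to 7357 FPKM in roxadustat libraries, 9.69 to 736 FPKM in DMOG libraries and 1361 to 14068 FPKM in PBS libraries. All 4 were called lower with DMOG, where 0.697% of all genes were lower. With roxadustat 0 of the 4 were called, at a median log2 difference of -2.52, where 0.653% of all genes were lower. Within the roxadustat group, replicate 6, with 4032 FPKM of Lars2, had 338 FPKM of lens markers, and replicate 1, with 743 FPKM of Lars2, had 7357 FPKM. In bulk samples, fewer cells of a type and less RNA per cell cannot be told apart.

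By Pearson correlation of log2(FPKM + 0.5) over the 18 libraries of liver RNA (libraries labelled retina), the genes most like Lars2 were Gprc5c (r = 0.822), Per3 (0.816), Gata4 (0.815), Tef (0.808) and 2310067B10Rik (0.805), and the most opposed were Dmkn (-0.781), Timp1 (-0.766), Hist1h2bk (-0.756), Cebpb (-0.730) and Gstp1 (-0.722). The corresponding genes in retina RNA (libraries labelled liver) were Txndc16 (0.861), Rapgef2 (0.836), Uhmk1 (0.818), Mesp1 (0.807) and Rab3gap1 (0.799), against Necab3 (-0.882), Mrpl14 (-0.841), Pih1d1 (-0.840), Hist1h2bp (-0.834) and Cdkn2aipnl (-0.823). These points share libraries and treatments, and the values are descriptive. Among the other 35 members, r with Lars2 was -0.498 (Nars) to 0.676 (Pars2) in liver RNA and -0.610 (Farsa) to 0.682 (Nars) in retina RNA, so Nars was at opposite ends of the order in the tables.

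In liver RNA (libraries labelled retina), 3 cytosolic members, Dars, Eprs and Cars, were higher with DMOG and 1, Tars, was lower, while 5 mitochondrial members, Lars2, Aars2, Vars2, Cars2 and Ears2, were lower and none higher. Called here means an adjusted p under 0.05 by limma with Benjamini-Hochberg adjustment over all genes tested. Of all 12657 genes tested, 8.26% were called higher and 11.7% lower in this comparison, so 3 of 36 members higher is near the background and 6 of 36 lower is somewhat above it. The median log2 difference was 0.05 for the cytosolic genes, -0.12 for the mitochondrial ones and 0.01 for all genes tested; when the library sums were made equal, the cytosolic median turned to -0.04, the mitochondrial one was -0.21 and that of all genes -0.07. Under that rescaling 1 member was called higher and 9 lower, and over all genes 584 were called higher and 2690 lower, where the deposited scale gave 1046 and 1480.

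Dars, the aspartate enzyme of the multisynthetase complex, was higher with both drugs in liver RNA (libraries labelled retina). It had 47.5, 48.3, 44.6, 50.4, 57.1 and 48.6 FPKM in roxadustat replicates 1 to 6, 46.0, 57.7, 43.0, 55.5, 40.7 and 48.3 FPKM in DMOG replicates 1 to 6, and 33.0, 38.0, 31.3, 38.8, 38.7 and 36.1 FPKM in PBS replicates 1 to 6. Every roxadustat and DMOG library lay above every PBS library. The log2 difference from PBS was 0.45 ± 0.09 (SE) for roxadustat (limma adjusted p = 0.00624) and 0.42 ± 0.09 for DMOG (0.00372), and both calls held in all 18 fits that left out one library. The promoter window of Dars shown above holds neither TGATGNAA nor ACGTG, and other forms of the HIF core were not searched.

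Eprs, whose protein joins both glutamate and proline in the cytosol, was higher with DMOG. It had 35.5, 37.6, 34.2, 32.8, 37.5 and 33.9 FPKM in roxadustat replicates 1 to 6, 46.1, 37.6, 52.3, 53.3, 37.4 and 40.5 FPKM in DMOG replicates 1 to 6, and 32.4, 34.9, 28.0, 37.1, 36.1 and 34.9 FPKM in PBS replicates 1 to 6. All DMOG libraries lay above all PBS libraries, the nearest pair at 37.4 and 37.1 FPKM, while the roxadustat libraries overlapped PBS. The log2 difference was 0.38 ± 0.09 for DMOG (limma adjusted p = 0.00883) and 0.06 ± 0.09 for roxadustat (0.775).

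Cars, the cytosolic cysteine enzyme, was higher with DMOG and its mitochondrial partner Cars2 was lower. Cars had 10.3, 9.59, 9.72, 11.1, 9.31 and 10.5 FPKM in roxadustat replicates 1 to 6, 16.8, 15.1, 12.6, 17.8, 10.7 and 14.9 FPKM in DMOG replicates 1 to 6, and 11.1, 10.8, 12.6, 12.4, 9.63 and 11.1 FPKM in PBS replicates 1 to 6. The DMOG libraries other than replicate 5 lay above every PBS library, replicate 3 by a small margin, and replicate 5 lay inside the PBS range. The log2 difference was 0.35 ± 0.10 for DMOG (limma adjusted p = 0.0193), a call lost without DMOG replicate 1 (0.0518) or replicate 4 (0.0534), and -0.15 ± 0.10 for roxadustat (0.450). An opposite-strand pseudogene, Gm15580, overlaps an exon of Cars by 211 bases, and whether counting used strand is not given.

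Cars2 had 5.11, 5.22, 5.01, 3.92, 5.26 and 4.56 FPKM in roxadustat replicates 1 to 6, 3.30, 3.28, 3.51, 3.57, 4.88 and 3.57 FPKM in DMOG replicates 1 to 6, and 4.21, 5.05, 4.73, 4.64, 4.73 and 4.44 FPKM in PBS replicates 1 to 6. All DMOG libraries but replicate 5 lay below every PBS library. The log2 difference was -0.30 ± 0.09 for DMOG (limma adjusted p = 0.0182) and 0.05 ± 0.09 for roxadustat (0.777). The last exons of Cars2 overlap Naxd on the opposite strand.

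The other mitochondrial members called lower with DMOG were Aars2 (alanine), Vars2 (valine) and Ears2 (glutamate). Aars2 had 4.57, 4.82, 5.18, 5.07, 5.41 and 3.89 FPKM in roxadustat replicates 1 to 6, 3.90, 3.54, 3.89, 4.35, 5.80 and 2.91 FPKM in DMOG replicates 1 to 6, and 5.00, 5.03, 5.50, 6.94, 5.10 and 6.40 FPKM in PBS replicates 1 to 6. Vars2 had 4.73, 4.05, 4.36, 4.41, 4.11 and 4.27 FPKM in roxadustat replicates 1 to 6, 4.12, 4.58, 3.18, 3.11, 4.41 and 3.68 FPKM in DMOG replicates 1 to 6, and 4.94, 4.73, 5.42, 4.72, 4.23 and 5.20 FPKM in PBS replicates 1 to 6. For Aars2, 5 DMOG libraries lay below every PBS library and replicate 5 did not; for Vars2 the groups overlapped.

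The log2 difference of DMOG from PBS was -0.45 ± 0.12 for Aars2 (limma adjusted p = 0.0145) and -0.32 ± 0.08 for Vars2 (0.0143). Ears2, which charges the glutamate tRNA and is the first step to glutaminyl-tRNA in mitochondria, had 5.96 to 7.88 FPKM in roxadustat libraries (median 6.88), 4.30 to 9.10 FPKM in DMOG libraries (median 6.06) and 7.26 to 8.75 FPKM in PBS libraries (median 8.33). The DMOG libraries other than replicate 5 lay below every PBS library, and replicate 5 was the highest of all 18. Its difference was -0.39 ± 0.12 (0.0322); the call was lost, with an adjusted p of at most 0.0791, without any of DMOG replicates 2, 3 and 6 or PBS replicates 1, 3, 4 and 6. Exons of Ears2 and Vars2 overlap Ubfd1 and Gm20483 on the opposite strand.

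Tars, the cytosolic threonine enzyme, was the exception among the cytosolic genes called. It had 20.9, 25.6, 24.3, 23.2, 24.7 and 20.01 FPKM in roxadustat replicates 1 to 6, 16.1, 18.2, 21.2, 22.3, 30.7 and 19.97 FPKM in DMOG replicates 1 to 6, and 25.8, 27.5, 25.1, 28.7, 29.5 and 29.0 FPKM in PBS replicates 1 to 6. All DMOG libraries but replicate 5, the highest of all 18, lay below every PBS library. The log2 difference was -0.38 ± 0.11 for DMOG (limma adjusted p = 0.0231), lost without DMOG replicate 1 (0.0599) or replicate 2 (0.0519), and -0.25 ± 0.11 for roxadustat (0.231). Its promoter window, shown above, holds both motifs, as do those of Aars and Iars. The log2 difference for DMOG was -0.24 ± 0.13 for Aars (limma adjusted p = 0.192) and 0.01 for Iars, and neither was called.

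**Figure D4:**
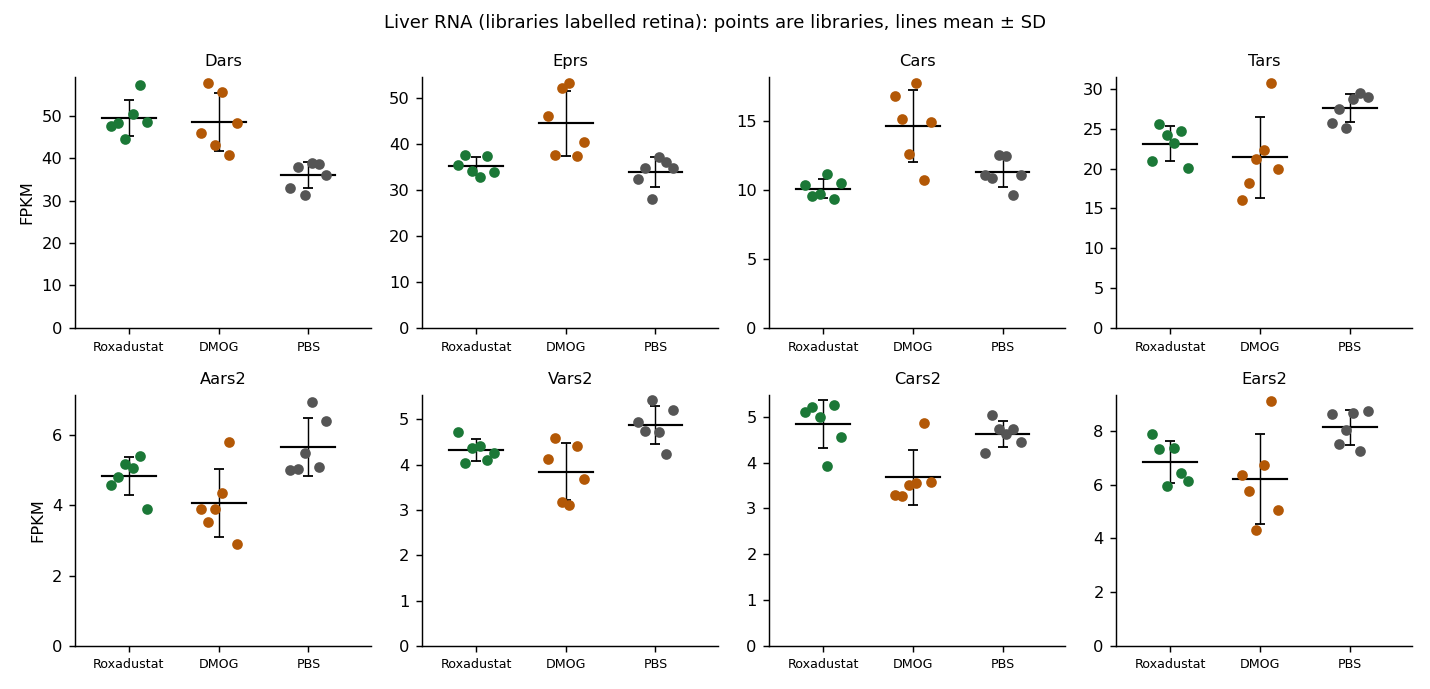
FPKM (axes from 0) of the 8 members other than Lars2 called in DMOG minus PBS in liver RNA (libraries labelled retina); each point is a library, lines are means and bars SD of 6 libraries. Dars is higher with both drugs, Eprs and Cars with DMOG, and 1 DMOG library, replicate 5, lies at or above the PBS mean for Tars, Aars2, Cars2 and Ears2.

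Without DMOG replicate 5 in liver RNA (libraries labelled retina), the log2 differences of DMOG from PBS were 0.47 for Dars, 0.43 for Eprs, 0.43 for Cars, -0.49 for Tars, -0.55 for Aars2, -0.50 for Ears2, -0.38 for Cars2 and -0.35 for Vars2, each farther from 0 than with it. Leaving it out gave 4 members higher and 8 lower with DMOG, where 17.3% of all genes were called higher and 18.1% lower. The members added were Vars (log2 difference 0.29 ± 0.09, limma adjusted p = 0.0222), which charges valine in the cytosol, and on the lower side Iars2 (-0.20 ± 0.07, 0.0267) and Tars2 (-0.20 ± 0.07, 0.0333), the mitochondrial threonine enzyme. Without it 7 of 16 mitochondrial members were called lower and 0 higher, against 4 of 18 cytosolic members higher and 1 lower. An exon of Iars2 overlaps Rab3gap2 on the opposite strand by 2034 bases.

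Paired by amino acid, the cytosolic gene had the higher log2 difference with DMOG in 15 of 17 pairs in liver RNA (libraries labelled retina), and in 15 of 17 without DMOG replicate 5. Cars (0.35) and Cars2 (-0.30), and Eprs (0.38) and Ears2 (-0.39), were called on opposite sides. The count with DMOG was 10 of 17 in retina RNA (libraries labelled liver). With roxadustat the counts were 12 of 17 in liver RNA and 6 of 17 in retina RNA. Eprs was paired with both Ears2 and Pars2, and Fars2 with both Farsa and Farsb, so the values of Eprs and Fars2 recur in these counts. The pairs also share libraries, so the counts carry no test.

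The 8 genes of the multisynthetase complex did not move as a block with DMOG in liver RNA (libraries labelled retina). Dars and Eprs were called higher, and the median over the 8 was 0.01 on the log2 scale, the same as over all genes tested. The scaffold genes Aimp1 (0.01 ± 0.08), Aimp2 (0.19 ± 0.10) and Eef1e1 (0.10 ± 0.09) were not called (limma adjusted p of 0.948, 0.210 and 0.440). Kars and Gars, shared by both compartments, had differences of 0.07 ± 0.14 and -0.03 ± 0.07. Wars, the tryptophan enzyme, known as a gene induced by interferon, had the widest spread of the cytosolic genes, with 12.8 to 38.7 FPKM in DMOG libraries and 9.68 to 31.0 FPKM in PBS libraries, and its difference of 0.49 ± 0.28 was not called (0.232).

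With roxadustat, 2 members were called in liver RNA (libraries labelled retina): Dars higher and Lars2 lower. Over all genes, 2.16% were called higher and 2.02% lower, so 1 of 36 members in each direction is near the background. On the deposited scale 274 genes were called higher and 256 lower; rescaled to an equal total they were 238 and 521, and the members called were 1 higher and 2 lower. Leaving out DMOG replicate 5 changed neither member call, with 4.12% of genes higher and 4.65% lower. The median log2 difference was 0.02 for cytosolic members, -0.10 for mitochondrial members and 0.00 for all genes; the cytosolic median was -0.02 after rescaling to an equal total.

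**Figure D5:**
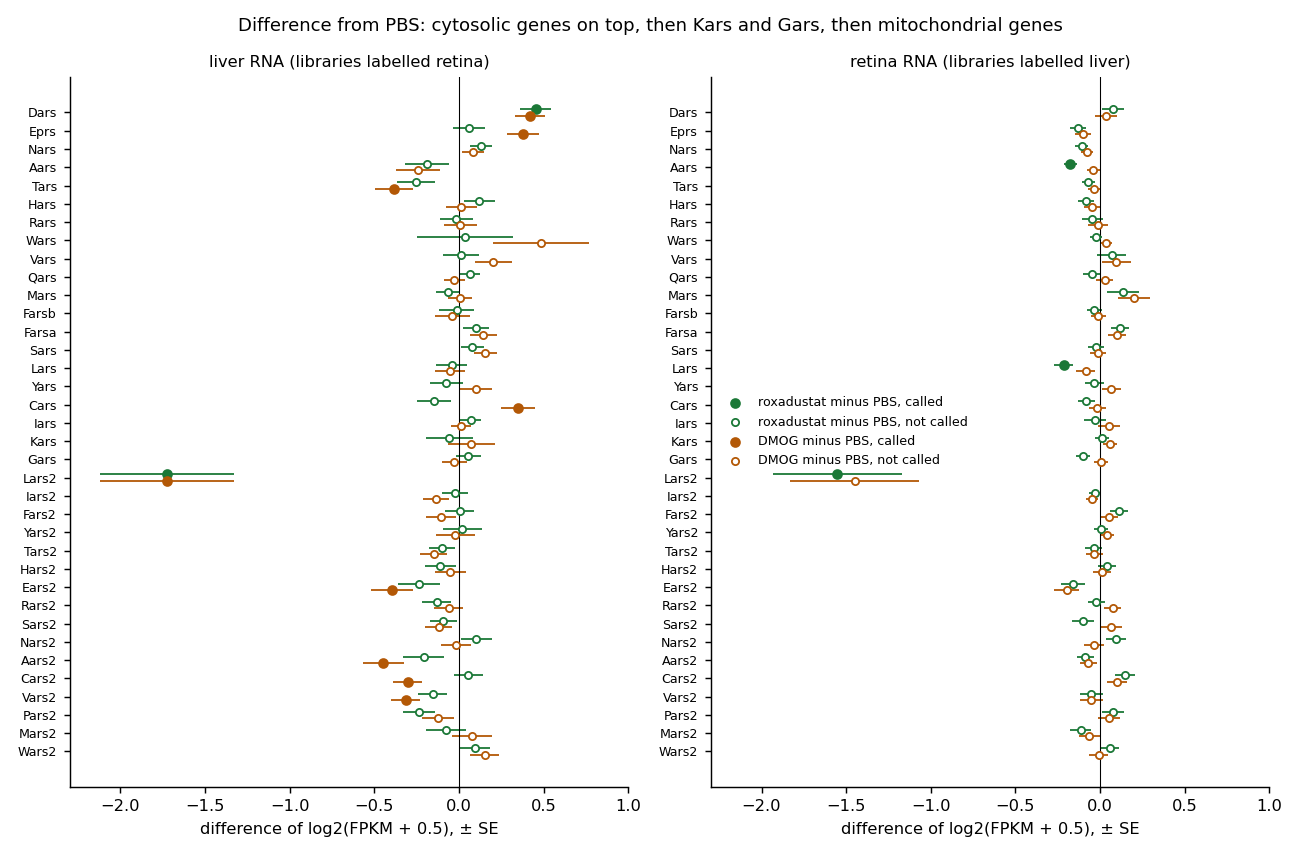
Difference of mean log2(FPKM + 0.5) from PBS, ± SE, for each member with roxadustat and with DMOG in liver RNA (libraries labelled retina, left) and retina RNA (libraries labelled liver, right); filled points passed an adjusted p of 0.05. Lars2 lies between -1.45 and -1.73 in all 4 comparisons, and every other member lies within 0.49 of 0.

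Set against each other in liver RNA (libraries labelled retina), roxadustat and DMOG differed in Cars and Cars2. Cars was lower with roxadustat than with DMOG (-0.50 ± 0.10, limma adjusted p = 0.0153) and Cars2 was higher (0.36 ± 0.09, 0.0315), where 1.14% of all genes were lower and 1.86% higher. Rescaled to an equal total, 461 genes were higher and 97 lower in place of 235 and 144, with the same counts of members. Without DMOG replicate 5 the calls were Cars (-0.58) and Eprs (-0.37, 0.0115) lower and Cars2 (0.43) and Aars2 (0.34, 0.0323) higher, where 7.15% of genes were lower and 9.06% higher. The Cars2 call held in 8 of 18 fits that left out one library: it was lost without roxadustat replicates 1, 2, 3, 5 or 6 or DMOG replicates 1, 2, 3, 4 or 6 (adjusted p at most 0.0856). By Xist and Y-linked genes, 1 of 6 roxadustat libraries and 4 of 6 DMOG libraries were female, and with sex as a covariate neither call held (0.0749 for Cars and 0.116 for Cars2).

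In retina RNA (libraries labelled liver), synthetase genes were called with roxadustat only. With DMOG no member was called by limma, while 4 had an unadjusted p under 0.05; 0.370% of all genes were called higher and 0.697% lower. Apart from Lars2, the 95% intervals of the members ran from -0.35 to 0.40 on the log2 scale. With roxadustat Aars, Lars and Lars2 were called lower and none higher, where 0.653% of genes were lower and 1.69% higher. So 3 of 36 members lower is above the background. None of these calls held in the fit of only the groups compared. Roxadustat against DMOG gave 0 calls, with 5 members at an unadjusted p under 0.05, beside 0.980% of genes higher and 0.334% lower.

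Aars, the cytosolic alanine enzyme, had 44.1, 44.2, 41.1, 45.3, 44.7 and 44.4 FPKM in roxadustat replicates 1 to 6 of retina RNA (libraries labelled liver). It had 50.6, 48.5, 49.8, 49.0, 46.9 and 45.5 FPKM in DMOG replicates 1 to 6, and 52.4, 47.8, 50.2, 51.8, 50.03 and 46.5 FPKM in PBS replicates 1 to 6. All roxadustat libraries lay below all DMOG and PBS libraries. The log2 difference of roxadustat from PBS was -0.18 ± 0.04 (limma adjusted p = 0.0151), which held in all 18 fits that left out one library. Its promoter, shown above, holds TGATGNAA in 2 places and CACGTG; the longest Aars transcript overlaps Exosc6 on the same strand by 1326 bases.

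Lars, the cytosolic leucine enzyme and so the partner of Lars2, had 18.7, 15.8, 17.4, 16.3, 18.8 and 17.5 FPKM in roxadustat replicates 1 to 6, 20.3, 18.1, 20.2, 18.9, 19.0 and 17.9 FPKM in DMOG replicates 1 to 6, and 22.7, 21.1, 19.3, 18.9, 19.8 and 20.1 FPKM in PBS replicates 1 to 6. All roxadustat libraries lay below all PBS libraries, the nearest pair at 18.8 and 18.9 FPKM. The log2 difference was -0.22 ± 0.05 (limma adjusted p = 0.0360); it was lost, with an adjusted p of at most 0.101, without roxadustat replicates 2, 3, 4 or 6 or PBS replicates 1, 2 or 6. The next members by adjusted p were Nars (-0.11 ± 0.04, 0.131), Eprs (-0.13 ± 0.05, 0.139) and Gars (-0.10 ± 0.04, 0.202), none of them called.

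The response to DMOG differed between the tissues for 6 members, fitted over both tables as liver RNA (libraries labelled retina) minus retina RNA (libraries labelled liver). The difference was 0.48 ± 0.10 for Eprs (limma adjusted p = 0.00208), 0.39 ± 0.11 for Dars (0.0149) and 0.37 ± 0.11 for Cars (0.0238). It was -0.40 ± 0.10 for Cars2 (0.00764), -0.35 ± 0.12 for Tars (0.0441) and -0.38 ± 0.13 for Aars2 (0.0473). Over 11101 genes tested in both tables, 6.97% were called higher and 8.91% lower, so 3 of 36 in each direction is near the background. The call held in all 36 fits that left out one library for Eprs, Dars and Cars2, in 34 for Cars (lost without liver RNA DMOG replicates 1 or 4, adjusted p at most 0.0527), in 19 for Tars and in 10 for Aars2, whose adjusted p reached 0.0937 and 0.101. With library sums made equal the calls of Dars (0.0511) and Cars (0.0567) were lost. Those of Tars and Aars2 were lost with no filter on low values, with median-ratio rescaling and with sex as a covariate (at most 0.0587 and 0.0609), and that of Aars2 also with a pseudocount of 1. For roxadustat no member's response was called different between the tissues by limma, while 3 had an unadjusted p under 0.05, beside 1.22% of genes higher and 1.03% lower.

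The correlations among members are given as a description over 18 libraries of liver RNA (libraries labelled retina) and 18 of retina RNA (libraries labelled liver), and the genes share those libraries. As deviations from the treatment means, the median r over pairs of cytosolic genes was 0.303 in liver RNA and 0.00587 in retina RNA, and over pairs of mitochondrial genes other than Lars2 it was 0.407 and 0.0107. Between a cytosolic and a mitochondrial gene the medians were 0.136 and 0.0172. The within-group spread of Lars2 was wider than that of the other members: in liver RNA its SD on the log2 scale was 0.30, 1.25 and 0.22 in roxadustat, DMOG and PBS libraries, against medians of 0.12, 0.19 and 0.13 over the other 35 members. In retina RNA it was 0.98, 0.75 and 0.32, against 0.08, 0.07 and 0.10.

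Genes of the amino acid response, a pathway that shares its regulator Atf4 with many cytosolic synthetases, were called in both directions with DMOG in liver RNA (libraries labelled retina): 11 of 32 tested were higher and 4 lower, with a median of 0.26 on the log2 scale against 0.01 over all genes, of which 8.26% were higher and 11.7% lower. Higher were Shmt2 (0.82 ± 0.15), a mitochondrial serine enzyme, and Ddit4 (1.37 ± 0.27), an inhibitor of mTORC1 that is also a known HIF target; Atf4 itself was 0.25 ± 0.08 higher (limma adjusted p of 0.00140, 0.00240 and 0.0314). Lower was Xpot (-0.45 ± 0.11, 0.00850), the exporter of tRNA from the nucleus. Without DMOG replicate 5 the counts were 16 higher and 6 lower, where 17.3% of all genes were higher and 18.1% lower. With roxadustat 5 of 32 were higher and 0 lower, led by Ddit4 (1.59 ± 0.27) and Stc2 (0.96 ± 0.18), where 2.16% of all genes were higher and 2.02% lower. In retina RNA (libraries labelled liver) 1 of 35 was higher and 1 lower with DMOG, and 3 higher and 0 lower with roxadustat. Over all genes of that table, 0.370% were higher and 0.697% lower with DMOG, and 1.69% higher and 0.653% lower with roxadustat.

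Some genes that work beside the mitochondrial synthetases were called with DMOG in liver RNA (libraries labelled retina). The share of all genes called in this comparison was 8.26% higher and 11.7% lower, and 17.3% higher and 18.1% lower without DMOG replicate 5. Of 17 genes listed as mitochondrial translation factors, not all of which act in translation itself, 4 were lower and 1 higher, with a median of -0.14. Tfb1m (-0.55 ± 0.14, limma adjusted p = 0.0112), which methylates mitochondrial ribosomal RNA, and Tsfm (-0.31 ± 0.09, 0.0170), an elongation factor, were lower. Mterf (0.32 ± 0.10, 0.0379) was higher. Without DMOG replicate 5, 7 of these 17 genes were lower and 1 higher, with a median of -0.20. Of 17 tRNA processing and modification genes 2 were lower and 1 higher, and 6 lower and 1 higher without DMOG replicate 5. Gatc, a subunit of the amidotransferase that completes glutaminyl-tRNA after Ears2, was lower (-0.32 ± 0.10, 0.0404), 1 of 4 genes tested in its list, or 3 of 4 without DMOG replicate 5.

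Mitochondrial ribosomal protein genes had 3 of 76 higher and 3 lower with DMOG in liver RNA (libraries labelled retina), and 3 higher and 13 lower without DMOG replicate 5. Over all genes 8.26% were higher and 11.7% lower, and without that library 17.3% and 18.1%, so the 3 lower genes fall under the background and the 13 are near it. The genes listed as translation factors had 1 higher and 7 lower without it. Over all genes, 2.16% were higher and 2.02% lower with roxadustat in liver RNA. In retina RNA the shares were 1.69% and 0.653% with roxadustat, and 0.370% and 0.697% with DMOG. With roxadustat the calls were 0 of 17 genes of the translation factor list and 1 of 76 ribosomal protein genes in liver RNA. In retina RNA (libraries labelled liver), 0 of 17 genes of the translation factor list were called with either drug, and 1 of 76 ribosomal protein genes with roxadustat. That gene was Mrpl54 in both tables, with log2 differences of 0.27 ± 0.07 (limma adjusted p = 0.0319) in liver RNA and 0.33 ± 0.06 (0.00612) in retina RNA.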

How the data were processed

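RNA-seq libraries of C57BL/6 mice given roxadustat, DMOG or PBS were compared, 6 per treatment and tissue label, 36 in all. The FPKM values were deposited by the authors as one table per tissue label; per the submitters' processing notes, bcl2fastq 1.8.3, TopHat2 2, Cuffdiff 2.2.1 and the mm9 build were used, and per the labels' protocols, libraries were made with a stranded total RNA kit after depletion of ribosomal RNA. The strand setting of the counting, and how reads with several matches were counted, are not given in the sources used here. The members and all gene lists were chosen with earlier results of these data known.

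Differences were tested on log2(FPKM + 0.5), a scale that understates the change of low genes, with limma 3.58.1 in R 4.3.3 (mean trend, all 3 treatments of a table in one fit). A gene entered the fit when its mean over the table was 0.5 FPKM or more, and Benjamini-Hochberg adjusted p-values ran over all 12657 genes of liver RNA (libraries labelled retina), 13779 of retina RNA (libraries labelled liver) or 11101 tested in both. The total row was left out, 0 columns lacked a sample, and 25 gene names had been turned into dates. Absolute depth is unknown; the steps between low values gave relative depths of 0.734 to 1.19 in liver RNA and 0.768 to 1.22 in retina RNA. Members named with values were those called, the extremes of each class and Lars2. On simulated data the DMOG fit recovered 66% of changes of 0.5 log2 in liver RNA and 87% in retina RNA, with 4.88% and 6.57% of calls wrong. The simulated noise was normal, with the same spread in every group and no outlying library, so these shares need not hold for the deposited values. The replicate numbers were not used to pair the samples in the main fits. Other pseudocounts, filters, rescalings, models, a sex covariate and leaving out each library were tried as alternatives. Transcripts were compared with blastn 2.17.0.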

Additional observations from a re-analysis of the deposited data

Results flagged for a closer look

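In the 57 groups of 6 libraries examined, 4 held a library far from the others, a number near that which chance gives at 1 in 20 groups. The groups examined were those of Lars2, of the members with the smallest adjusted p in each table and of the class extremes. Cars2, Tars and Ears2, called in liver RNA (libraries labelled retina), were not among them. By the values given above, DMOG replicate 5 lay far from the rest of its group for Cars2. All 4 libraries flagged were in retina RNA (libraries labelled liver). Lars2 was 4032 FPKM in roxadustat replicate 6, where the next highest library of the group had 1266 FPKM. Aars was lowest in roxadustat replicate 3 at 41.1 FPKM, where the next was 44.1 FPKM. Wars2 was highest in roxadustat replicate 6 at 3.98 FPKM, where the next was 3.57 FPKM, and Kars was highest in PBS replicate 5 at 54.9 FPKM, where the next was 51.3 FPKM.

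The response to DMOG differed between liver RNA (libraries labelled retina) and retina RNA (libraries labelled liver) for 6 members by limma's test of the difference itself. On the log2 scale the difference was 0.48 for Eprs, 0.39 for Dars, 0.37 for Cars, -0.35 for Tars, -0.38 for Aars2 and -0.40 for Cars2. The call of Aars2 held in 10 and that of Tars in 19 of 36 fits without one library, and those of Aars2, Tars, Cars and Dars were each lost under at least 1 other setting.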

How the results depend on the processing

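The Lars2 decreases in liver RNA (libraries labelled retina) kept their call in every alternative run, with log2 differences of -1.81 to -1.66 for roxadustat and -2.03 to -1.44 for DMOG when one library was left out. In retina RNA (libraries labelled liver), the roxadustat difference of -1.55 missed the threshold with no filter on low values (adjusted p = 0.0601), with robust empirical Bayes (0.0685), with the replicate block (0.0783) and with only the groups compared (0.0567). The DMOG difference of -1.45 passed it with only the groups compared (0.0407). Its exact permutation p of 0.00216, or 0.00649 over the 6 Lars2 comparisons, was not adjusted over all genes and so cannot be set against this threshold. The cause of the shifts between settings was not tested. Leaving out one library gave -1.92 to -1.39 for roxadustat and -1.65 to -1.27 for DMOG. Roxadustat minus DMOG ranged from -0.28 to 0.31 in liver RNA, where it was -0.077 with sex as a covariate, and from -0.47 to 0.10 in retina RNA. The difference of response ranged from -0.34 to 0.20 for roxadustat and from -0.58 to 0.0092 for DMOG.

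The number of members called for roxadustat minus DMOG in liver RNA, 2, was 1 with no filter, 1 with a mean of at least 5 FPKM, 0 with sex as a covariate, 0 with only the groups compared, and 1 to 4 without one library. In retina RNA, with only the groups compared, it was 0 in place of 3 for roxadustat and 1 in place of 0 for DMOG; without one library it was 1 to 3 for roxadustat and 0 to 1 for DMOG. For the difference of response it was 2 with median-ratio rescaling and 1 with the replicate block in place of 0 for roxadustat, and without one library 0 to 2 for roxadustat and 3 to 7 for DMOG. For DMOG minus PBS in liver RNA it was 7 to 12 without one library and 6 with only the groups compared, in place of 9; that fit ended the calls of Cars (0.0555), Tars (0.0553) and Ears2 (0.0685).

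With library sums made equal, Eprs (0.29, adjusted p = 0.0647) and Cars (0.26, 0.0522) were not called with DMOG in liver RNA, nor Aars with roxadustat in retina RNA (0.0605), nor the differences of response to DMOG of Dars (0.0511) and Cars (0.0567). Replicate numbers were shared across treatments, but same-numbered libraries correlated from -0.333 to 0.546 in their deviations. No pairing was used in the main fits, though such correlations cannot show that pairing was absent. Without known absolute depth, counting error of the low mitochondrial members could not be given.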
